A study of Arabidopsis thaliana with 9 samples.

Results

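A set of 111 of the 22746 probe sets of the Arabidopsis ATH1 array read higher in seedlings of the double mutant cyp78a5,7 than in wild type, with amp1-13 close to wild type. The members were chosen by these same values. Every one of the 3 cyp78a5,7 arrays had to lie above all 6 other arrays, the group mean of log2(signal + 16) had to be at least 1.3 above wild type in cyp78a5,7, and the group mean in amp1-13 had to lie within 0.25 of wild type. The condition on the arrays alone was met by 1657 probe sets, 7.28% of all, and 512 of them were also at least 1.3 above wild type. The window in amp1-13 left 117, of which 6 named genes of nitrate use, of dehydration and cold, and of hormone or chlorophyll breakdown were set aside by name. Since the members were selected on the cyp78a5,7 and amp1-13 means, their differences from wild type are given below as a description, with no test. A single gene could be named for 104 members, 3 members matched several genes and 4 had no name.

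The 9 arrays measured RNA of whole Col-0 seedlings of 3 genotypes at an age of 10 days, with 3 biological replicates of each. CYP78A5 and CYP78A7 are cytochrome P450 enzymes and AMP1 is a putative carboxypeptidase, and the arrays were made to set the expression changes of the mutants, which look alike, side by side. The deposited values are MAS5 signal intensities, in which the probes of a probe set are summarized on a linear scale for each array alone.

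The groups were wild type Col-0, the double mutant cyp78a5,7 and the single mutant amp1-13, both in the Col-0 background. The cyp78a5 and cyp78a7 lines and amp1-13 came from a stock centre, each mutant genotype is represented by 1 allele combination, and the amp1-13 data had served an earlier study of a small molecule. All seedlings, wild type included, were grown in wells with liquid half-strength MS medium that held 1% sucrose and 1% DMSO, at 26 °C under long days. How many seedlings were pooled for an array is not given in the sources used here. The probe set named for CYP78A7 read 11.5, 9.46 and 12.7 on wild type arrays 1 to 3, 21.2, 24.97 and 37.1 on the cyp78a5,7 arrays and 12.2, 31.9 and 28.7 on the amp1-13 arrays, so it was not lower in the mutant. Where its probes lie relative to the insertion is not given here, so it does not check the genotype, and cyp78a5,7 stands in what follows for the arrays labelled so. In RNA of whole seedlings, a larger share of the cells that use a gene and more of its RNA in each cell cannot be told apart.

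Plants answer wounding, insects, microbes and water loss with partly shared sets of genes. Jasmonates are hormones made from fatty acids, and cells that make them also make the enzymes that hydroxylate, hydrolyse and glycosylate them. Abscisic acid acts in dehydration and cold through genes for protective proteins, while receptors at the cell surface recognise microbial proteins or the peptides of damaged cells and call up kinases and transcription factors. Enzymes such as glutathione transferases and glycosyltransferases attach sugar or glutathione to small molecules of many origins.

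Over the 111 members, the cyp78a5,7 minus wild type difference ran from 1.31 to 3.36 on the log2 scale, with a median of 1.62. The amp1-13 minus wild type difference ran from -0.24 to 0.25 with a median of 0.10, and 79 members were above wild type in amp1-13 and 32 below. The median over all probe sets was -0.02 for cyp78a5,7 and 0.02 for amp1-13. In wild type the members' mean signal had a median of 50.1, against 35.4 for all probe sets. For 27 members the wild type mean was under the offset of 16, so that their difference depends on the offset, while 77 read over 16 on all 9 arrays. In 56 members the lowest cyp78a5,7 array was more than 2 times the highest of the other arrays. The rule itself required these arrays not to overlap, and the share over all probe sets was not counted, so this only describes the selection. Of the 104 named members, 28, 17, 15, 12 and 32 lay on chromosomes 1 to 5. These are 26.9%, 16.3%, 14.4%, 11.5% and 30.8%, against 25.9%, 16.4%, 20.4%, 14.8% and 22.5% of named probe sets. Within 5 genes of each other lay 3 pairs, AT2G26380 with ARD3, AT3G03020 with CSLD3 and AT5G59480 with RTFL5. Such pairs were not counted over all probe sets.

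**Figure D1:**
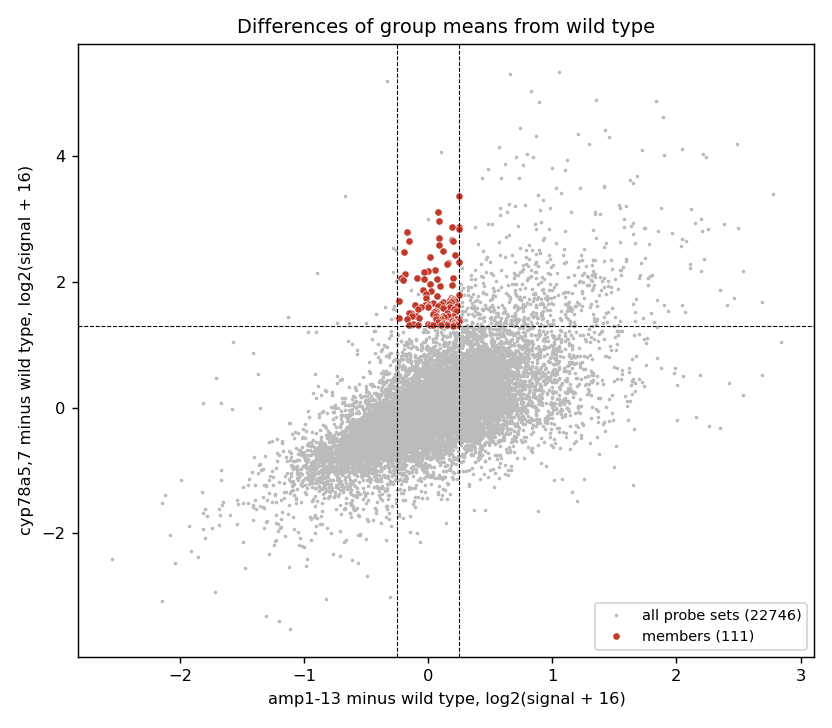
Each point is a probe set, with the amp1-13 minus wild type difference on the x axis and the cyp78a5,7 minus wild type difference on the y axis, both of group means of log2(signal + 16), 3 arrays a group. The dashed lines are the limits of the rule, at 1.3 and at -0.25 and 0.25, and the 111 members lie above and between them, up to 3.36. Grey points in the same strip failed the condition on the arrays or were set aside by name.

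Close to the limits the choice was narrow. With UGT74B1 at 1.307 and ABCB4 at 1.310 just inside the lower limit, AT2G21210 at 1.297 and ASN2 at 1.294 lay just outside it. At the edge of the amp1-13 window, AT1G64380 at 0.2498 and GPT2 at 0.249 were kept, while AT2G15760 at 0.255 and PRN at -0.259 were not. GPT2 kept its place in 2 of the 9 settings that leave out 1 array, UGT74B1 in 3 and AT1G64380 in 6. GSTU6 and FLS2, with amp1-13 differences of 0.244 and 0.2494, also kept theirs in 6, whereas 26 members met the rule in all 9.

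The member with the largest difference was GSTU6, a tau-class glutathione transferase. It read 75.2, 30.01 and 37.7 on wild type arrays 1 to 3, 261, 704 and 1214 on cyp78a5,7 arrays 1 to 3 and 76.6, 52.5 and 43 on amp1-13 arrays 1 to 3, a difference of 3.36 in cyp78a5,7 and of 0.24 in amp1-13. Array 1 was the lowest of the cyp78a5,7 arrays and array 3 the highest. GSTU22, a second glutathione transferase, gave 30.2, 80.2 and 210.0 in cyp78a5,7, with wild type at 8.29, 9.93 and 16.3 and amp1-13 at 9.37, 12.4 and 9.77. Its wild type and amp1-13 arrays overlapped and lay around or under the offset.

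Among glycosyltransferases of the UGT76 family, UGT76E12 and UGT76E1 showed the same form. UGT76E12 read 6.63, 0.308 and 3.46 on the wild type arrays, 48.5, 124 and 364 on those of cyp78a5,7 and 4.87, 0.555 and 8.88 on those of amp1-13. UGT76E1, known to glycosylate hydroxylated jasmonate, stood at 0.787, 0.333 and 0.441 across wild type, 9.82, 33.2 and 41.3 across cyp78a5,7 and 0.485, 0.397 and 0.597 across amp1-13, all values near the bottom of the scale. Both genes were thus close to 0 outside cyp78a5,7, and their differences, 2.96 and 1.34, are set in part by the offset. UGT74B1, which glycosylates a precursor of glucosinolates, was well measured in every genotype, at 243, 371 and 224 for wild type, 718, 757 and 628 for cyp78a5,7 and 276, 316 and 357 for amp1-13, with a difference of 1.31.

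The remaining members that modify or export small molecules were 2 cytochromes P450 and 3 transporters. RSH2, so named in RefSeq and annotated to drug transport, ran 39.7, 27.95 and 29.3 on the wild type arrays, 95.2, 276 and 568 on those of cyp78a5,7 and 40.2, 19.3 and 21.6 on those of amp1-13. Its highest cyp78a5,7 array was 5.97 times its lowest. CYP96A4 had a difference of 2.07, CYP81F3, which acts on indole glucosinolates, 1.62, AT5G44050, annotated to drug transport, 1.64, and ABCB4, an auxin transporter, 1.31.

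Genes of jasmonate metabolism and output gave 8 members, UGT76E1 above among them, with differences from 1.34 to 3.12 and a median of 1.72. JRG21, a jasmonate oxidase, read 12.9, 0.632 and 0.230 across wild type, 43.1, 153 and 498 across cyp78a5,7 and 3.54, 12.7 and 0.497 across amp1-13. Only the cyp78a5,7 arrays lay clear of the low values of the other genotypes, and array 3 was 11.5 times array 1. ILL6, an amidohydrolase of the jasmonate-isoleucine conjugate, was present in every genotype, at 92.8, 90.9 and 107 for wild type, 476, 921 and 1034 for cyp78a5,7 and 93.7, 78.2 and 81.1 for amp1-13. ILL6 averaged 96.9 ± 8.76 for wild type, 810.4 ± 295 for cyp78a5,7 and 84.3 ± 8.25 for amp1-13 (mean ± SD, n = 3), with the amp1-13 mean slightly under wild type.

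LOX6, a lipoxygenase of the first step of jasmonate synthesis, stood at 111, 169 and 117 on the wild type arrays, 254, 420.1 and 587 on those of cyp78a5,7 and 132, 138 and 172 on those of amp1-13. The lipase DALL3 (AT2G30550), which belongs to the family that frees fatty acids for this pathway, had a difference of 1.74. TPS04, the geranyllinalool synthase of insect-induced volatiles, read 0.241, 0.284 and 0.204 in wild type and 0.460, 0.427 and 0.295 in amp1-13, which is no measurable signal, and 33.1, 80.3 and 119 in cyp78a5,7. No fold can be given against values near 0. RGL3, a DELLA protein that binds JAZ repressors, and AT1G06620, annotated to jasmonate signalling, had differences of 1.41 and 1.696. In all 8 of these genes array 3 was the highest cyp78a5,7 array and array 1 the lowest. The group was drawn up after the values had been seen. NAC019 and AT5G53750, members also tied to jasmonate but placed in other groups, were highest on array 2, at 335 and 279. Other jasmonate genes went differently on the same arrays. Among the 17 genes of jasmonate synthesis and signalling outside the members that were called higher in cyp78a5,7, array 3 was the highest in 3 and the lowest in 9.

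Proteins of dehydration and cold gave another 8 members, with a median difference of 1.86. ERD7, an early gene of dehydration, had the highest signal in cyp78a5,7 of all members, at 1596, 2144 and 2467, against 327, 295 and 293 in wild type and 447, 296 and 326 in amp1-13. HVA22D, a membrane protein induced by abscisic acid, read 81.5, 106 and 111 across wild type, 389, 764 and 1294 across cyp78a5,7 and 109.7, 96.03 and 111 across amp1-13. Their wild type and amp1-13 arrays overlapped. COR15A, a protein that protects chloroplast membranes in the cold, gave 15.8, 9.13 and 16.8 for wild type, 25.7, 60.1 and 216 for cyp78a5,7 and 11.4, 15.3 and 10.9 for amp1-13. Its difference of 1.603 rested largely on array 3, since array 1 reached only 1.53 times the highest other array.

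NAC019, a transcription factor of abscisic acid and jasmonate responses, went a different way within the mutant. Its signals were 73.8, 43.9 and 38.5 on the wild type arrays, 274, 335 and 255 on those of cyp78a5,7 and 45.2, 56.2 and 57.96 on those of amp1-13, so that array 3 was the lowest of the cyp78a5,7 arrays. AT1G51090, annotated to cold, water deprivation and abscisic acid, was at 10.5, 6.04 and 6.69 across wild type, 44.3, 87.8 and 141 across cyp78a5,7 and 4.75, 4.82 and 3.40 across amp1-13. SIP1, a raffinose synthase, read 137, 173 and 147 for wild type, 236, 593 and 616 for cyp78a5,7 and 168, 128 and 119.7 for amp1-13. Here array 1 stood apart from the other cyp78a5,7 arrays. The proline transporter ProT3 and SAT32, a gene of salt tolerance, had differences of 1.65 and 1.36.

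Members that supply reductant in plastids numbered 6, with a median difference of 1.70 and array 3 minus array 1 of cyp78a5,7 between 0.01 and 1.16. G6PD3, a plastid glucose-6-phosphate dehydrogenase of the oxidative pentose phosphate pathway, read 59.5, 74.6 and 53.8 on the wild type arrays, 431, 519 and 784 on those of cyp78a5,7 and 83.9, 68.6 and 68.6 on those of amp1-13. It averaged 62.6 ± 10.8 for wild type, 578 ± 184 for cyp78a5,7 and 73.7 ± 8.82 for amp1-13 (mean ± SD, n = 3). G6PD2, the second plastid isoform among the members, had 159, 210.3 and 170.4 across wild type, 641, 498 and 651 across cyp78a5,7 and 191, 169 and 169 across amp1-13. Its arrays 1 and 3 of cyp78a5,7 were nearly equal.

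AT5G41670, annotated to the pentose phosphate shunt, stood at 131, 214 and 135 for wild type, 717, 891 and 1201 for cyp78a5,7 and 204, 176 and 173 for amp1-13. RFNR1 and FD3, a root-type ferredoxin reductase and a ferredoxin of non-green plastids, had differences of 1.75 and 1.46, with amp1-13 at -0.02 and -0.10. GPT2, which carries glucose-6-phosphate into plastids, had 1.38. AO and NIC3, of NAD synthesis and salvage, had 1.64 and 1.58. All 6 genes of plastid reductant supply had array 3 as the highest cyp78a5,7 array, but only 4 had array 1 as the lowest, since G6PD2 and GPT2 were lowest on array 2.

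**Figure D2:**
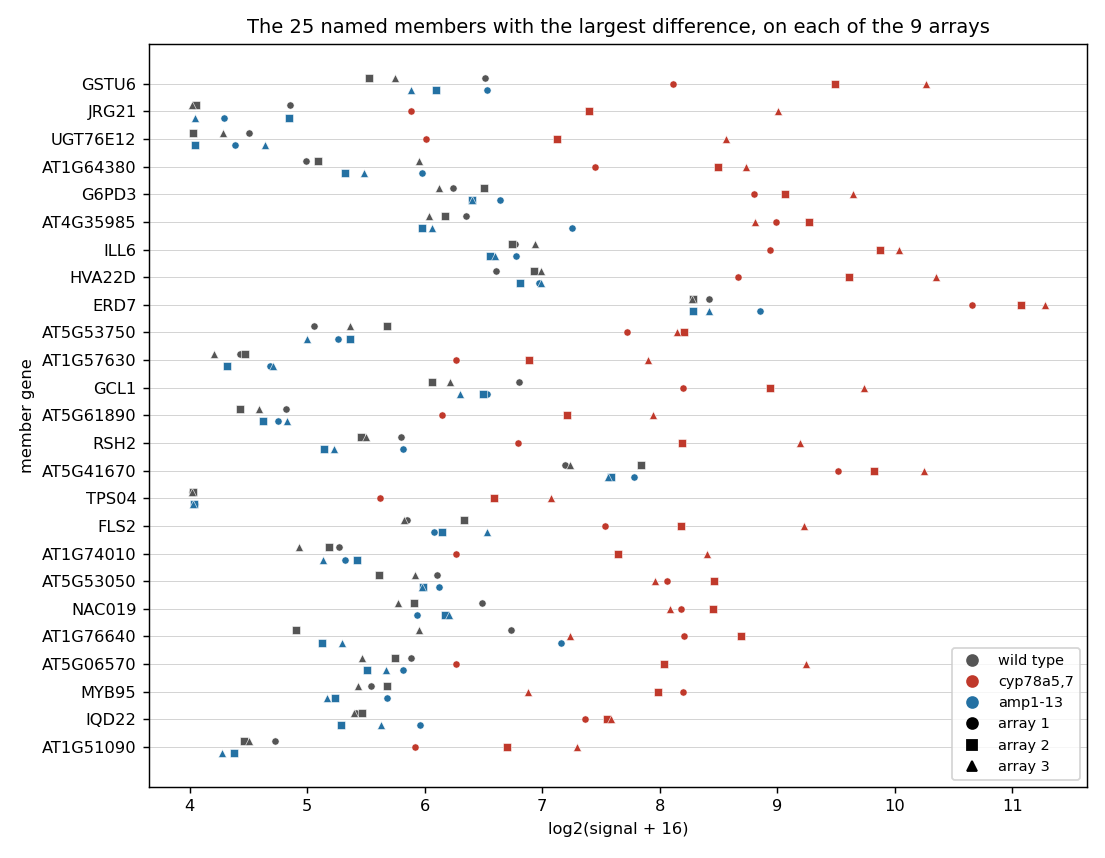
The x axis is log2(signal + 16) and each row is 1 of the 25 named members with the largest cyp78a5,7 minus wild type difference, with the 3 arrays of each genotype as symbols. The cyp78a5,7 arrays lie to the right of all other arrays in every row, as the rule requires, and in most rows array 1 is the leftmost of them and array 3 the rightmost.

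Receptors, signalling peptides and kinases gave 14 members, with a median difference of 1.66. FLS2, the receptor of bacterial flagellin, read 41.6, 64.7 and 40.5 on the wild type arrays, 169, 275 and 584 on those of cyp78a5,7 and 51.7, 54.7 and 76.3 on those of amp1-13. Array 3 of cyp78a5,7 was 3.46 times array 1. PROPEP4, the precursor of a danger peptide, gave 48.3, 21.2 and 39.1 across wild type, 95.8, 212 and 209 across cyp78a5,7 and 72.4, 24.4 and 19.3 across amp1-13. Its lowest cyp78a5,7 array was only 1.32 times amp1-13 array 1, which stood above the other amp1-13 arrays. AT1G57630, annotated to defence and signal transduction, was at 5.55, 6.22 and 2.47 for wild type, 61.2, 103 and 223 for cyp78a5,7 and 9.70, 3.95 and 10.1 for amp1-13.

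Calcium and phosphorylation were represented by several further members. AT1G76640, the calmodulin-like protein CML39, ran 90.5, 13.9 and 45.9 on the wild type arrays, 279, 397 and 134 on those of cyp78a5,7 and 127, 18.9 and 23.2 on those of amp1-13. Its groups were almost touching, with the lowest cyp78a5,7 array 1.06 times the highest other array, and array 3 was the lowest in cyp78a5,7. IQD22, a calmodulin-binding protein, had close arrays, with 26.7, 28.3 and 26.1 across wild type, 149, 171 and 176 across cyp78a5,7 and 46.1, 23.1 and 33.5 across amp1-13. SIP4, the kinase CIPK11, read 64.5, 84.8 and 69.9 for wild type, 247, 333 and 216 for cyp78a5,7 and 110.2, 66.99 and 66.2 for amp1-13, with array 3 again the lowest. The others were PLC4, a phospholipase C, at 1.85, the kinases MAPKKK15 and CST at 1.502 and 1.32, the metacaspase MC7 at 1.54, AT5G44910 and AT2G26380, annotated to defence, at 1.68 and 1.41, and AT5G24430 and AT1G61360, annotated to protein phosphorylation, at 1.53 and 1.44.

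Among 8 transcription factors, AT1G64380 had the largest difference, 2.88. It is annotated to transcription and ethylene signalling and read 15.8, 18.2 and 45.8 on the wild type arrays, 159, 346 and 410.2 on those of cyp78a5,7 and 47.1, 24.1 and 28.7 on those of amp1-13. AT5G61890, with a like annotation, gave 12.3, 5.47 and 8.07 across wild type, 54.9, 132 and 231 across cyp78a5,7 and 10.96, 8.66 and 12.4 across amp1-13. MYB95 was at 30.5, 35.3 and 27.2 for wild type, 277, 238 and 102 for cyp78a5,7 and 35.3, 21.8 and 19.9 for amp1-13. Unlike in most members, array 1 was the highest cyp78a5,7 array, at 2.73 times array 3. The others were AT3G53600 at 1.97, near 0 outside cyp78a5,7, AT4G32800 at 1.71, AT5G01380 at 1.46, the flowering repressor SMZ at 1.43 and CDF1, which represses CONSTANS, at 1.33. SMZ also had the lowest amp1-13 difference of the members, -0.24.

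Lipid and phenylpropanoid genes gave 5 members. KCS1, a condensing enzyme of very-long-chain fatty acids for wax, read 206, 249 and 194 on the wild type arrays, 477, 1228 and 1428 on those of cyp78a5,7 and 286, 176 and 232 on those of amp1-13. For 4CL5, which activates hydroxycinnamic acids for lignin and flavonoids, the values were 88.5, 113 and 103 across wild type, 338, 499 and 597 across cyp78a5,7 and 115, 86.7 and 62.3 across amp1-13. Both were lowest on array 1 of cyp78a5,7. MGD1, which makes the main galactolipid of chloroplasts, AT4G30470, annotated to lignin synthesis, and the choline kinase CK1 had differences of 1.57, 1.32 and 1.31.

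Members of the cell wall and of sugar use gave 7 differences between 1.33 and 1.80. They were AT1G32860, annotated to cell wall organisation, at 1.795, the pectin acetylesterase PAE11 (AT5G45280) at 1.71, the cell wall invertase ATBFRUCT1 at 1.696, the dolichol kinase DOK1 (AT3G45040) at 1.47, CSLD3, a cellulose synthase-like protein of root hairs, at 1.41, GATL2 at 1.35 and the Golgi nucleotide sugar transporter GONST1 at 1.33. Their amp1-13 differences had a median of 0.19, the highest of the groups.

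The 4 members of the ubiquitin system were alike in another respect, since array 2 and not array 3 was their highest cyp78a5,7 array. PUB45, a U-box ligase, gave 18.5, 26.4 and 18.3 for wild type, 59.6, 102 and 101 for cyp78a5,7 and 23.5, 28.7 and 20.2 for amp1-13. PP2-B11, an F-box protein, read 14.98, 19.1 and 6.74 on the wild type arrays, 43.7, 93.1 and 69.6 on those of cyp78a5,7 and 15.8, 14.1 and 11.95 on those of amp1-13, and the related PP2-B6 5.15, 7.01 and 9.04, 39.5, 58.2 and 45.3 and 14.7, 8.08 and 6.87 in the same order. Wild type read 26.4 or less for PUB45, PP2-B11 and PP2-B6, so the offset weighs on their differences of 1.46, 1.498 and 1.46. MUB4, a membrane-anchored ubiquitin-fold protein, was brighter, with a difference of 1.61.

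A further 40 members fell outside these groups, with differences from 1.31 to 2.84 and a median of 1.55. AT4G35985, the largest of them, read 65.7, 56.1 and 49.7 across wild type, 493, 601 and 433 across cyp78a5,7 and 137, 47.1 and 50.8 across amp1-13, where array 1 stood above the other amp1-13 arrays. AT5G53750, annotated to wounding and jasmonate, was at 17.3, 35.2 and 25.1 for wild type, 196, 279 and 267 for cyp78a5,7 and 22.3, 25.1 and 16.05 for amp1-13. GCL1, a GCR2-like protein, gave 95.5, 50.9 and 58.3 on the wild type arrays, 277, 475 and 836 on those of cyp78a5,7 and 76.6, 74.4 and 62.8 on those of amp1-13. In GCL1 array 3 of cyp78a5,7 was again the highest, and in AT4G35985 the lowest.

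AT1G74010, AT5G53050 and AT5G06570 have no role stated here. AT1G74010 read 22.6, 20.4 and 14.6 across wild type, 61.2, 184 and 323 across cyp78a5,7 and 24.02, 26.8 and 19.03 across amp1-13. AT5G53050 read 52.7, 32.9 and 44.6 for wild type, 251, 337 and 233.6 for cyp78a5,7 and 53.7, 47.2 and 46.8 for amp1-13, with cyp78a5,7 arrays that lay close together. In AT5G06570 they differed 9.69 times between the lowest and the highest, with 61.04, 246 and 592 in cyp78a5,7, 42.9, 37.6 and 28.2 in wild type and 40.2, 29.6 and 35.1 in amp1-13.

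Named members with a known product among the rest were AIR12, an auxin-induced protein, at 1.604, Tudor2, a nuclease of stress granules, at 1.6, ARD3, of methionine salvage, at 1.68, MEB2, of the ER body membrane, at 1.41, SMXL2 (AT4G30350), a relative of the karrikin repressor SMAX1, at 1.41, and RTFL5, of a family of small growth peptides, at 1.37. The members named by locus alone were AT5G26010, AT5G23850, AT5G03700, AT1G23850, AT5G59480, AT3G05500, AT4G27720, AT2G02630, AT1G62840, AT2G48080, AT2G46150, AT5G02170, AT1G34750, AT5G54300, AT1G10090, AT3G18560, AT4G23470, AT3G50910, AT3G03020, AT2G21510 and AT2G47950, with differences from 1.31 to 1.78. Of the 7 members without 1 gene, the largest difference was that of 253879_s_at, 2.05, followed by 262226_at at 1.96, 247109_at at 1.93, 248524_s_at at 1.73, 262254_at at 1.66, 245799_at at 1.62 and 245944_at at 1.32.

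The rule did not ask which of the 3 arrays within a genotype was highest or lowest. It did act on the same array values, so the order is not independent of the selection. Array 1 was the lowest cyp78a5,7 array in 92 of the 111 members (82.9%), against 31.3% of all probe sets, and array 3 was the highest in 76 (68.5%), also against 31.3% of all. Both held together in 73 members. The median deviation from the cyp78a5,7 mean was -0.45 for array 1, 0.14 for array 2 and 0.35 for array 3. Over the 109 members that read above the offset of 16 on all cyp78a5,7 arrays the shares were 82.6% and 67.9%, against 32.4% and 35.3% of all probe sets that did so. After quantile normalization array 1 was lowest in 93 members and array 3 highest in 74. The members share these arrays, so their shares describe 3 samples and are no replicates of one another. Most of all probe sets were not called in cyp78a5,7 in the fit given below (4.37% higher, 2.64% lower). The shares over all probe sets are therefore no expectation for raised genes.

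The order was also seen in the 376 probe sets that met the same condition in cyp78a5,7 while amp1-13 lay above the window, but in a smaller share of them. There array 1 was lowest in 56.1% and array 3 highest in 48.4%, with median deviations of -0.20 and 0.12. In the 19 probe sets raised in cyp78a5,7 with amp1-13 below the window the shares were larger than in the members, 94.7% and 84.2%, with median deviations of -0.74 and 0.698. In amp1-13 itself, array 1 was the highest of its 3 arrays in 69 members (62.2%) and in 74.5% of those 376 probe sets, against 31.8% of all probe sets. In wild type no array was highest in more than 48 members. The median signal of all probe sets was 37.1, 34.9 and 34.4 on cyp78a5,7 arrays 1 to 3, and the summed signal of the shoot markers RCA, LHCB2.3 and CA1 was 4254, 3690.0 and 3333, highest where the members were lowest. The same sum was highest on array 1 in wild type too, at 3168, 2750.3 and 2219, and in amp1-13, at 6627, 6103 and 5258, where the members were mostly highest on array 1 as well. The part of these in the order of the members was not tested.

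**Figure D3:**
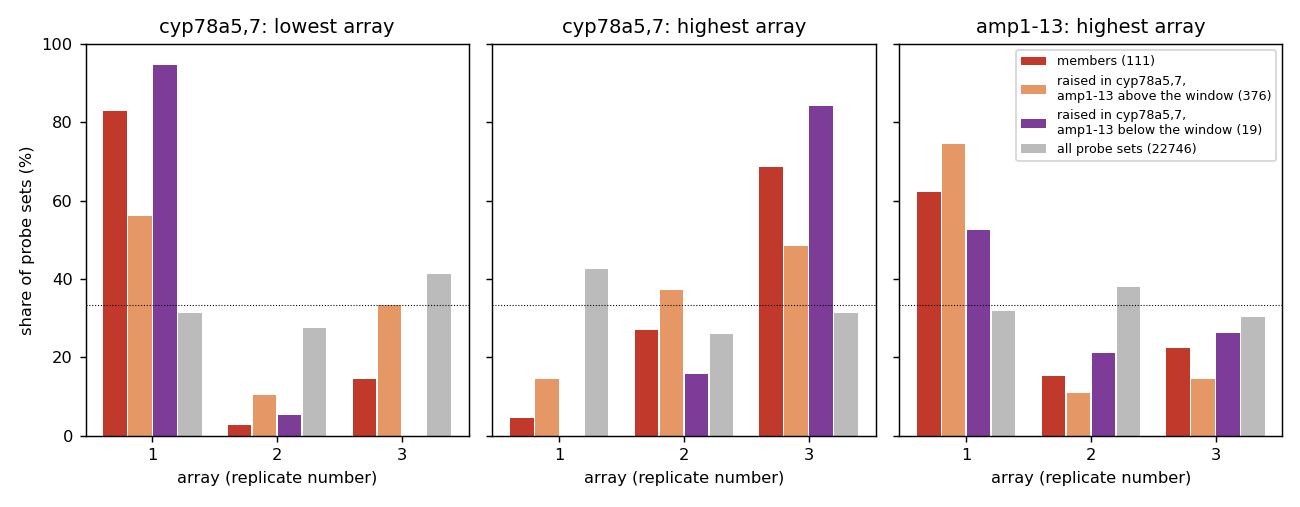
Bars give the share of probe sets, in percent, for which array 1, 2 or 3 was the lowest or highest cyp78a5,7 array or the highest amp1-13 array, for the members, for the 376 and the 19 probe sets raised in cyp78a5,7 with amp1-13 above and below the window, and for all probe sets. The dotted line is an equal share of the arrays, and the members stand at 82.9%, 68.5% and 62.2% for cyp78a5,7 array 1, cyp78a5,7 array 3 and amp1-13 array 1.

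The difference between cyp78a5,7 arrays 3 and 1, taken with its sign, varied between roles. It is no measure of spread. AT1G76640, at -0.97, lowers the median of its role although its cyp78a5,7 arrays differed 2.96 times. Genes highest on array 2, such as the ubiquitin group, can also have a small difference. Array 3 minus array 1 of cyp78a5,7 had a median of 0.84 over all members and ran from -1.46 for 248524_s_at to 3.12 for JRG21. Its median was 1.61 for the genes that modify or export small molecules, 1.35 for dehydration and cold and 1.12 for jasmonate (-0.22 in the 17 jasmonate genes outside the members), against 0.70 for plastid reductant supply, 0.69 for receptors and signalling and 0.33 for the ubiquitin group. Array 3 was the lowest cyp78a5,7 array in 16 members, among them MYB95, NAC019, SIP4, AT1G76640, AT4G35985 and UGT74B1. The groups are small and were drawn up after the values had been seen, so these medians are a description.

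**Figure D4:**
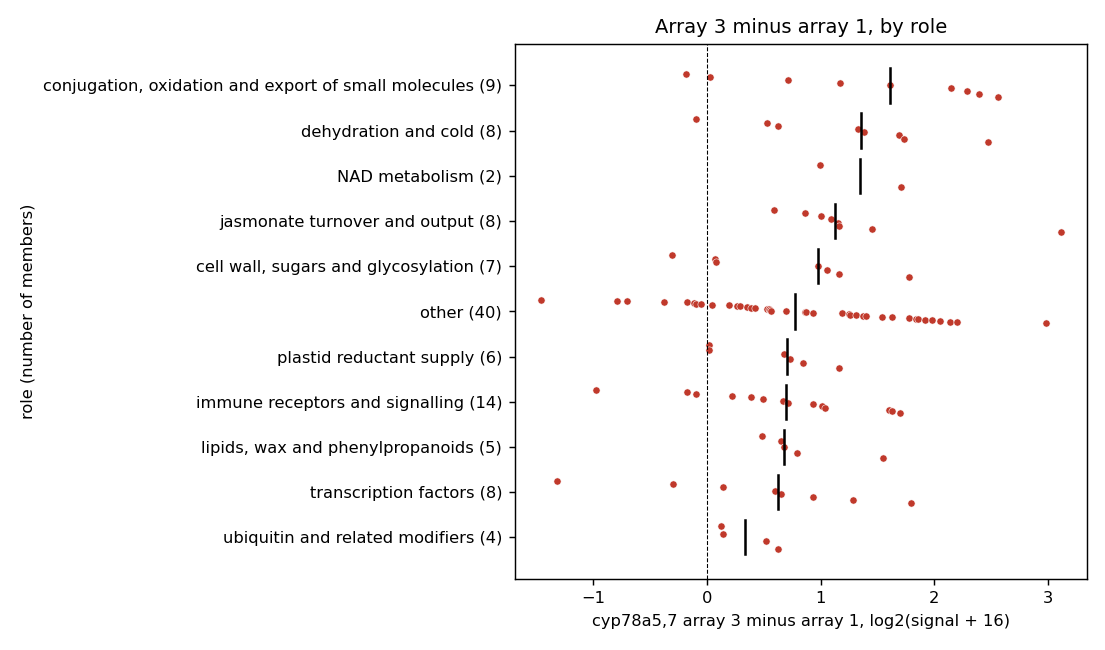
Each point is a member, the x axis is its difference between cyp78a5,7 arrays 3 and 1 in log2(signal + 16), and the rows are roles with the number of members. The vertical bar is the median of a role, from 0.33 for the ubiquitin group to 1.61 for the genes that modify or export small molecules, and points left of the dashed line at 0 had array 1 above array 3.

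Across all probe sets, linear models in limma with Benjamini-Hochberg adjustment called, at an adjusted p under 0.05 and at least 2-fold, 995 probe sets in which cyp78a5,7 exceeded wild type and 601 in which it fell short, which is 4.37% and 2.64% of those tested. In amp1-13 1.8% were called higher and 0.796% lower, and between the mutants 2.15% were higher and 1.76% lower in cyp78a5,7. Of the members 109 were called higher in cyp78a5,7 than in wild type, none was called in amp1-13 and 105 were called higher in cyp78a5,7 than in amp1-13, counts that follow from how the members were chosen and show nothing more. COR15A and 245944_at missed the first call, and AT1G76640, AT5G03700, COR15A, AT2G46150, AT5G54300 and 245944_at the last one.

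The other genes of the members' pathways were counted apart from the members. Of the 104 named members, 52 owe their name to the study's own gene list, which was selected on these arrays. Outside the members 49.5% of the probe sets named from that list were called higher in cyp78a5,7, against 3.22% of those named by the platform annotation, so the counts below are raised by the naming. Over 8 pathway lists, 54 of 68 such probe sets were called higher in cyp78a5,7 and none lower, and of the 16 named by the platform annotation 9 were higher.

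In abscisic acid and dehydration response, 14 further genes of the 31 listed could be measured besides the members ERD7, HVA22D, COR15A and NAC019. Of these, 11 were higher and none lower in cyp78a5,7, and 2 were higher and 1 lower in amp1-13, with median differences of 1.53 and 0.44. RD29A, a dehydration and cold gene, rose by 3.39 (SE 0.45, adjusted p = 0.0015) in cyp78a5,7 and was at -0.76 in amp1-13, ERD9, a glutathione transferase, rose by 3.03 (SE 0.65, adjusted p = 0.011) and was at 0.50, and DDF1, a transcription factor, rose by 3.47 (SE 0.71, adjusted p = 0.0091) and was at 1.17. Only 1 of the 14 was named by the platform annotation, and it was not called in cyp78a5,7.

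In jasmonate synthesis 7 of the 8 measured genes other than LOX6 were higher in cyp78a5,7 and 1 in amp1-13, with medians of 2.76 and 0.72. The lipoxygenases LOX3 and LOX4 rose by 4.28 (SE 0.38, adjusted p = 0.00035) and 4.09 (SE 0.52, adjusted p = 0.0014), and the allene oxide cyclase AOC3 by 3.44 (SE 0.33, adjusted p = 0.00045). LOX3 also rose in amp1-13, by 1.38, whereas LOX6 was inside the window. LOX4 and AOC3 were at 1.65 and 1.05 in amp1-13 and were not called there (adjusted p = 0.075 for each). Of the 2 synthesis genes named by the platform annotation, 1 was called higher in cyp78a5,7. In jasmonate signalling, which held no member, 10 of 12 were higher in cyp78a5,7 and 4 in amp1-13, led by the repressor genes JAZ7, JAZ10 and JAZ5 at 4.89 (SE 0.67, adjusted p = 0.0018), 4.85 (SE 0.42, adjusted p = 0.00031) and 4.61 (SE 0.53, adjusted p = 0.00087). In amp1-13 JAZ7, JAZ10 and JAZ5 were at 1.79, 0.82 and 1.83 and were not called (adjusted p = 0.12, 0.24 and 0.057). All 3 owe their names to the study's list, and of the 2 signalling genes named by the platform annotation none was called, with a median of -0.23.

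In pattern-triggered immunity, 9 of the 12 genes other than FLS2 and PROPEP4 were higher in cyp78a5,7 and 3 in amp1-13. The kinase FRK1 rose by 2.43 (SE 0.36, adjusted p = 0.0025), the ligase PUB22 by 2.32 (SE 0.31, adjusted p = 0.0017) and the receptor kinase SOBIR1 by 2.08 (SE 0.26, adjusted p = 0.0013) in cyp78a5,7, and PUB22 and SOBIR1 also rose in amp1-13, by 1.21 and 1.44. Of the 5 named by the platform annotation 4 were higher in cyp78a5,7 and 2 in amp1-13.

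The wax list held KCS1 as a member and 5 other genes, of which 3 were higher in cyp78a5,7 and none in amp1-13. They were LTPG1, a lipid transfer protein, at 1.27 (SE 0.29, adjusted p = 0.015), and the condensing enzymes KCS20 and KCS3 at 1.26 (SE 0.22, adjusted p = 0.0051) and 1.19 (SE 0.31, adjusted p = 0.024). Beside 4CL5, 1 of 2 phenylpropanoid genes was higher, CCR2 by 1.73 (SE 0.23, adjusted p = 0.0017). In the senescence list 5 of 6 were higher in cyp78a5,7 and 2 in amp1-13, with WRKY6, WRKY53 and SAG21 at 2.18 (SE 0.26, adjusted p = 0.001), 1.98 (SE 0.45, adjusted p = 0.014) and 1.66 (SE 0.25, adjusted p = 0.0025). Of the tryptophan and indole glucosinolate genes other than UGT74B1, 8 of 9 were higher in cyp78a5,7 and 1 in amp1-13, with CYP79B2, CYP81F2 and ASA1 at 2.05 (SE 0.21, adjusted p = 0.00054), 1.82 (SE 0.21, adjusted p = 0.00084) and 1.82 (SE 0.17, adjusted p = 0.00039). The 1 called higher in amp1-13 was CYP81F2, whose difference from wild type was larger there than in cyp78a5,7. Its cyp78a5,7 minus amp1-13 difference was -0.48 and was not called (adjusted p = 0.19). Neither list counted any gene as lower. Of those named by the platform annotation, 0 of 1 in the wax list, 1 of 2 in the phenylpropanoid list and 3 of 3 in the senescence list were higher in cyp78a5,7, and the glucosinolate list had none.

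Gene families were counted by symbol. Of 17 glutathione transferases with GSTU or GSTF in the symbol, other than GSTU6 and GSTU22, 5 were higher in cyp78a5,7 and none in amp1-13. Their median difference was -0.02 in cyp78a5,7. ERD9, counted above with the dehydration genes, has another symbol and is not among the 17. Of the 12 named by the platform annotation, 1 was higher in cyp78a5,7. The tau-class genes GSTU5, GSTU4 and GSTU11 rose by 3.64 (SE 0.37, adjusted p = 0.0005), 2.11 (SE 0.50, adjusted p = 0.017) and 2.04 (SE 0.12, adjusted p = 0.0001). GSTU20, GSTU23 and GSTU16 had differences of -0.99 (SE 0.27, adjusted p = 0.028), -0.99 (SE 0.13, adjusted p = 0.0017) and -0.95 (SE 0.23, adjusted p = 0.017), under 2-fold. Among 6 further UGT76 genes, a family added after the values were seen, UGT76B1 was called higher at 1.34 (SE 0.38, adjusted p = 0.034) and UGT76E2 and UGT76E11, at 1.00 (SE 0.26, adjusted p = 0.025) and 0.89 (SE 0.24, adjusted p = 0.027), were not. UGT76C1 was at -0.47 (SE 0.10, adjusted p = 0.011), under 2-fold, and UGT76C2 and UGT76D1 were at -0.11 and -0.01.

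Of 11 plant U-box ligases other than PUB45 4 were higher in cyp78a5,7 and 1 in amp1-13. Of 13 MYB factors other than MYB95 3 were higher and 5 lower in cyp78a5,7, and of 8 NAC factors other than NAC019 3 were higher and 2 lower. WRKY factors, cysteine-rich receptor kinases, receptor-like proteins and arabinogalactan proteins gave no member. In cyp78a5,7 16 of 21, 9 of 11, 4 of 4 and 6 of 9 of them were higher, and in amp1-13 7, 2, 1 and 1. The arabinogalactan genes AGP22 and AGP13 were lower in cyp78a5,7, at -1.69 and -1.78, and AGP13 was also lower in amp1-13. The receptor kinases, receptor-like proteins and arabinogalactan proteins were all named from the study's list, as were the MYB factors. Of the 6 WRKY factors, 9 U-box ligases and 1 NAC factor named by the platform annotation, 3, 3 and 0 were higher in cyp78a5,7. For the WRKY factors the median difference was 1.42 in cyp78a5,7 and 0.82 in amp1-13.

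Markers of plant parts were measured for few genes. The summed shoot markers, 3 of 5 with a probe set, gave 2219 to 3168 in wild type, 3333 to 4254 in cyp78a5,7 and 5258 to 6627 in amp1-13, and CA1 was higher in cyp78a5,7 than in wild type, by 1.66. The root marker PYK10, the only 1 of 6, gave 4628 to 5154 in wild type, 3600.2 to 4467 in cyp78a5,7 and 4309 to 4853 in amp1-13, and in the quantile-normalized fit it differed from wild type by 0.10 in cyp78a5,7 (adjusted p = 0.55), the other direction. CLV3, the only marker of 5 for the shoot meristem, read 10.1 or less on all 9 arrays, under the offset. The shoot markers lay highest in amp1-13, where the members lay near wild type by the rule. The part of the marker levels in the members' values was not tested.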

How the data were processed

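Signal intensities of 9 arrays, 3 for each genotype, were used as deposited. The authors made them with MAS5, whose version is not given in the sources used here, unlogged, and a trimmed mean that leaves out 2% of the values at each end was close to 100.0 on every array. No detection calls were used. The study's own values came from RMA of the raw arrays, which were not analysed here. The number of arrays, 3 for each genotype, limits the precision.

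The rule was applied to log2(signal + 16) with no further normalization, after leaving out 64 control probe sets. Probe sets were named from the platform annotation, updated through RefSeq, and otherwise from the names in the study's gene list. FNR2 in the rule was read as RFNR2, and RFNR1 was kept. For calls, log2(signal + 16) was quantile normalized and fitted in limma 3.58.1 (R 4.3.3) with genotype as the only term over all 9 arrays, two-sided, with Benjamini-Hochberg adjustment over 22746 probe sets. A call needed an adjusted p under 0.05 and a 2-fold change. The fit was tested on simulated data. Figures used matplotlib 3.10.9 in Python 3.11.15. The members, the gene lists and the rule were chosen with earlier results of these data known, and the roles after the values were seen. Values per array are given for the 25 named members with the largest difference and for other named members in the lists or in families with at least 2 members. For each list up to 3 called genes outside the members, by size of change, are named. Other scalings, offsets, limits, filters, fits and leaving out each array were tried as alternatives. No sequences were used.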

Additional observations from a re-analysis of the deposited data

Results flagged for a closer look

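Of the 22 genes outside the members that the text names from the pathway lists, 12 also differed between the mutants themselves in limma, at an adjusted p under 0.05 and at least 2-fold over all probe sets. As cyp78a5,7 minus amp1-13 on the log2 scale, the difference was 4.15 for RD29A and 2.53 for ERD9 of the dehydration list, 2.89 for LOX3, 2.44 for LOX4 and 2.39 for AOC3 of jasmonate synthesis, and 3.10 for JAZ7, 4.03 for JAZ10 and 2.79 for JAZ5 of jasmonate signalling. It was 1.89 for FRK1 of the immunity list, 1.18 for KCS3 of the wax list, and 1.41 for CYP79B2 and 1.29 for ASA1 of the tryptophan and indole glucosinolate list. All 12 were higher in cyp78a5,7. The 22 genes had been picked for the size of their change against wild type on the same cyp78a5,7 arrays, so the 2 comparisons are not independent and the count of 12 says nothing about the lists.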

How the results depend on the processing

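Which probe sets met the rule depended on its settings. Against 111 members, an offset of 64 gave 67, of which 45 were shared, and an offset of 1 gave 130, of which 75 were shared. A lower limit of 1.0 gave 182 and one of 1.6 gave 61, and an amp1-13 window of 0.15 gave 59 and one of 0.5 gave 199. Quantile normalization gave 106, of which 90 were shared, and 75th percentile centring 106, of which 92 were shared. Leaving out 1 array gave 82 (without cyp78a5,7 array 3) to 151 (without cyp78a5,7 array 1), and 26 members were kept under all 9 such settings. For the 39 members with values per array, the cyp78a5,7 minus wild type difference was taken again under each alternative. Of 507 such differences, 472 moved by less than 1 SD of the gene's cyp78a5,7 arrays and 35 by more, nearly all with the offset. Leaving out an amp1-13 array cannot change this difference, and leaving out a cyp78a5,7 array cannot move it by 1 SD. The sign changed in 0, which the rule fixed beforehand for other offsets and for arrays left out. These counts are therefore no measure of stability.

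Calls against wild type moved with the offset. In cyp78a5,7 the 1596 calls became 2516 with an offset of 1 and 774 with 64, in amp1-13 the 591 became 888 and 242, and between the mutants the 891 became 411 with 64. Leaving out 1 array gave 1294 to 1975 calls for cyp78a5,7, 326 to 923 for amp1-13 (923 without wild type array 2, 326 without wild type array 3, 389 and 383 without amp1-13 arrays 1 and 2) and 553 (without amp1-13 array 2) to 1270.0 between the mutants. The 54 list genes called higher outside the members ranged from 42 (offset 64) to 59 (offset 1), and from 51 to 56 with 1 array left out.

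Same-numbered arrays correlated at -0.119 to 0.161 after group means were removed, and other arrays at -0.174 to 0.247, so the numbers gave no measured pairing. With a replicate block the calls were 1586 for cyp78a5,7, 579 for amp1-13 and 827 between the mutants, and 54 list genes. Promoter sequences were not used.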
